A study of Lentinus brumalis with 11 samples.

Results

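The genes described here are 6 versatile peroxidase (VP) genes of the white-rot fungus *Polyporus brumalis*, with ProtIDs #1360396, #1487275, #918032, #1359988, #1110945 and #310665. They are the VP genes whose mean level was highest at Day 4 of growth on wheat straw. They are 6 of the 9 VP genes, of the 19 genes of the AA2 peroxidase family and of the 18244 genes counted. The study's family table classes all 6 as VPs with a predicted secretion signal, and only that class and the time of the highest level chose them.

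VPs are secreted heme peroxidases that white-rot fungi use against lignin. They combine a site that oxidizes manganese ions, as in manganese peroxidases (MnPs), with an exposed tryptophan that takes electrons directly from large aromatic molecules, as in lignin peroxidases. They consume hydrogen peroxide, which oxidases of the AA3 and AA5_1 families, such as aryl alcohol oxidases and glyoxal oxidases, are known to produce. Short MnPs are relatives in the same AA2 family that oxidize manganese ions and also some phenols without them.

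RNA of the dikaryotic strain BRFM 985 was sequenced in 11 libraries of 4 groups. The control comprised 3 liquid cultures on 2% malt extract, harvested after 10 days. The straw groups came from mycelium grown for 6 days on 2% malt extract, according to the labels, and then put on sterilized wheat straw in packed-bed columns with a metal solution of copper, iron and manganese sulfates. They comprised 2 libraries at Day 4, 3 at Day 10 and 3 at Day 15. Liquid or straw and the added metals differ together between the control and the straw groups, and at Days 10 and 15 the total age of the culture differs from the control as well, so these cannot be told apart. Each library is RNA of a whole culture, so fewer cells transcribing a gene and less of its RNA per cell cannot be told apart either.

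The values are counts of uniquely mapped reads on the genome of a monokaryotic strain obtained from the same fungus. Reads that match several near-identical peroxidase genes equally well are therefore missing, and the reads of both nuclei of the dikaryon fall on 1 gene model. Library totals ran from 20368063 to 42408348 counts. A level is the mean of log2(normalized count + 1) ± SD over libraries, where counts were normalized with DESeq2 size factors. Log2 fold changes and adjusted p-values come from edgeR's quasi-likelihood test with Benjamini-Hochberg adjustment over the 15462 genes that passed a filter on low counts, and a gene was called at an adjusted p below 0.05. All 6 VP genes passed that filter.

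The third Day 10 library stood apart from the other Day 10 libraries. Across genes, Spearman's rho between this library and those of Day 4 reached 0.958 and 0.961, while the others stayed at 0.949 to 0.954. Toward Day 15 the order was the opposite, at 0.970 to 0.974 for this library and 0.981 to 0.988 for the others. Of the 4520 genes called lower at Day 15 than at Day 4 (29.2% of those tested), it was the highest of the 3 Day 10 libraries in 52.2%. Of the 4422 called higher (28.6%), it was the lowest in 58.0%. The main results that rest on Day 10 are given with and without it where it moved them.

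At Day 4 the 6 genes were among the most abundant transcripts of the fungus. By mean normalized count per kb of gene span (introns included), they ranked 1, 2, 3, 5, 12 and 15 among the 18240 genes with a known span. In the control, #310665 ranked 309 on the same scale and the other 5 ranked between 3627 and 13459. Together the 6 genes took 0.0651% to 0.0779% of all counts of a control library. At Day 4 this share was 6.57% and 6.65%, at Day 10 it was 1.20%, 1.27% and 2.47%, and at Day 15 it was 0.282% to 0.350%. The 2.47% belonged to the third Day 10 library. By normalized count, no library of one group reached into the range of another for any of the 6 genes. The groups stood in the order Day 4, Day 10, Day 15, control for each gene. As a percentage of library counts, Day 15 and the control overlapped for #1359988. Its share was 0.000441% in Day 15 replicate 3, below 0.000508% and 0.000481% in control replicates 1 and 3. The first place of Day 4 was set by the choice of the genes. Such separation, also given for single genes below, was not counted over all genes. Of all genes tested, 31.5% were called higher and 31.1% lower at Day 10 than in the control.

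**Figure D1:**
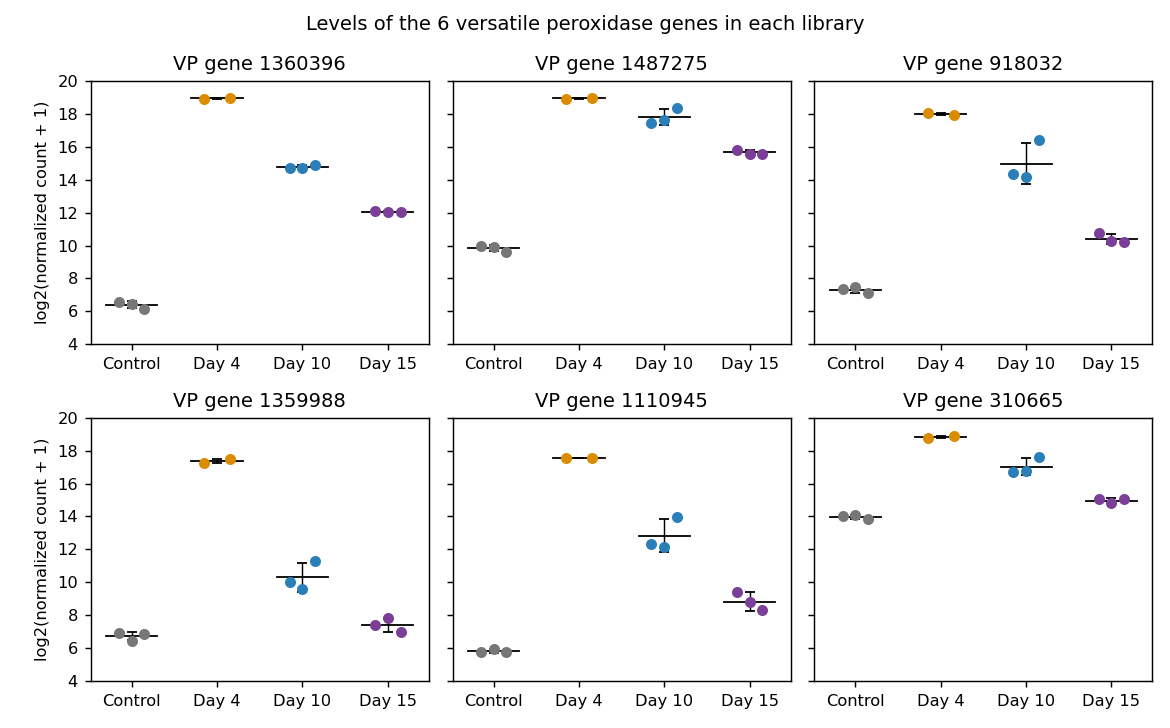
Levels of the 6 VP genes, as log2(normalized count + 1), in each of the 11 libraries (points) with the group mean (wide line) and SD (error bar). Every gene is highest in both Day 4 libraries and lower at each later day, #310665 starts from the highest control level (13.97), and the upper Day 10 point of each panel is replicate 3.

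The margin by which Day 4 exceeded the next group, which was Day 10 for all 6, describes the choice and was not tested. It was smallest for #1487275, at 1.12 on the log2 scale of levels, and largest for #1359988, at 7.07. The nearest VP gene outside the rule was #897918, whose Day 4 level was below its Day 10 level by 1.66 (16.76 ± 0.33 at Day 10 and 15.10 ± 0.04 at Day 4). #1412926 was also highest at Day 10 (17.04 ± 0.26) and #935251 was highest in the control (10.49 ± 0.02).

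#1360396 was nearly silent in liquid culture, with normalized counts of 93.6, 86.6 and 71.0 in the control. It reached 499349 and 514248 at Day 4, was at 26724, 27010 and 30732 by Day 10 and stood at 4462, 4262 and 4142 in the Day 15 libraries. The groups did not overlap, and the lowest Day 15 library was 44.2-fold above the highest control library. Its fitted log2 difference between Day 4 and the control was 12.52, the widest of the 6. This gene varied least among the Day 10 libraries, since replicate 3 was 1.14 times the mean of replicates 1 and 2.

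#1487275 had the highest levels of the 6 late in the culture. Control libraries had normalized counts of 1012, 971 and 787, Day 4 libraries 494141 and 516361, Day 10 libraries 180520, 204455 and 337997, and Day 15 libraries 57627, 49056 and 49348. The lowest Day 4 library exceeded the highest Day 10 library by 1.46-fold, the narrowest separation seen for any of the 6 genes between these groups. It had the most normalized counts per kb of the 6 at Days 10 and 15, and at Day 15 it still ranked 55 among all genes per kb span.

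#310665 differed from the others in its starting level. The control already had normalized counts of 16516, 17295 and 14499. Straw cultures had 452396 and 485004 at Day 4, 107847, 109482 and 201207 by Day 10 and 33801, 28881 and 33485 by Day 15. The lowest Day 15 library was only 1.67-fold above the highest control library, without overlap. The log2 difference between Day 4 and the control was 4.82, the smallest of the 6 genes.

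#918032 showed the widest spread at Day 10. Its normalized counts were 164, 175 and 136 in liquid culture and 266996 and 254077 after 4 days on straw. They were 20673, 18486 and 89159 after 10 days and 1753, 1230 and 1196 after 15 days. Replicate 3 of Day 10 was 4.55 times the mean of replicates 1 and 2, yet the groups did not overlap. The annotation starts #918032 at base 1 of a scaffold of 2 genes, so its model and its span may be incomplete. The annotation also places a second gene model, #1562415, inside #918032 (577 of 1428 bp). The library kit does not mark strand, so reads of the shared stretch cannot be assigned to either gene, and the values of #918032 are uncertain to that extent. The level of #1562415 followed another course, with means of 6.77 (control), 6.48 (Day 4), 7.18 (Day 10) and 8.29 (Day 15).

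#1359988 had the widest gap between Day 4 and Day 10. From normalized counts of 118, 85.3 and 116 in liquid culture it stood at 157365 and 180441 in the Day 4 libraries, at 1031, 758 and 2504 in those of Day 10 and at 170, 227 and 126 in those of Day 15. The Day 15 libraries lay just above the control libraries, with the lowest 1.07-fold above the highest control value. The drop in level was 1.18 per day on the log2 scale from Day 4 to Day 10 and 0.58 per day from Day 10 to Day 15.

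#1110945 was the least abundant of the 6 in the control per kb span. Normalized counts were 52.4, 60.0 and 53.9 in liquid culture and 190035 and 191512 after 4 days on straw. After 10 days they were 5066, 4577 and 16028, and after 15 days 679, 435 and 314. Here too replicate 3 was the high Day 10 library, at 3.32 times the mean of replicates 1 and 2, and no groups overlapped. Its level dropped by 0.79 per day from Day 4 to Day 10 and by 0.80 per day from Day 10 to Day 15, but by 0.88 and then 0.68 per day without that library.

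The pace of the fall differed among the other genes as well. Levels of #1360396 dropped by 0.70 per day before Day 10 and 0.54 after it. Those of #1487275, #918032 and #310665 dropped by 0.19, 0.50 and 0.30 per day before Day 10 and by 0.43, 0.91 and 0.41 after it. With and without Day 10 replicate 3, #1359988 and #1360396 lost more per day in the first interval and #1487275 and #918032 in the second. Without it #310665 dropped by 0.35 per day in both intervals, so its later pace and the even pace of #1110945 rest on that library. These rates use the Day 4 values that chose the genes and are a description.

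Because the genes have different lengths, they were ordered per kb of gene span. At Day 4 the order was #1487275 (367990 ± 11443 normalized counts per kb), #1360396 (364603 ± 7580), #310665 (271081 ± 13336), #918032 (182448 ± 6397), #1359988 (129527 ± 12513) and #1110945 (108889 ± 596). The ranges of #1487275 and #1360396 overlapped, and all other neighbours in the order were apart. The span includes introns, so the order also depends on it. By normalized count alone, #1110945 (190035 and 191512) was above #1359988 (157365 and 180441) in the Day 4 libraries. The place of #918032 is uncertain, since its span may be incomplete and is shared with another gene model. At Day 15 the order was #1487275, #310665, #1360396, #918032, #1110945 and #1359988, with no overlap between neighbours and means from 37881 ± 3545 down to 134 ± 38.6. At Day 10 the ranges of #310665 and #918032 overlapped, as did those of #918032 and #1360396. Both overlaps rest on replicate 3. Without it no neighbours overlapped, and #918032 (12946 and 14477 normalized counts per kb) lay below #1360396 (19226 and 19432). In the control #310665 led with 9314 ± 835, and only #1359988 and #1360396 overlapped.

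**Figure D2:**
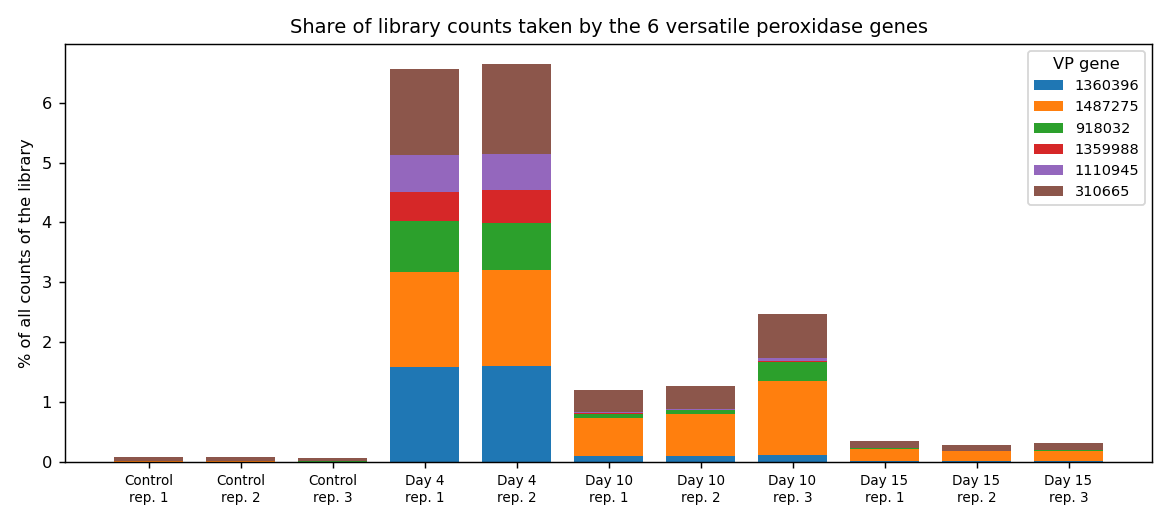
Stacked bars give the percentage of all counts of each library that fell on each of the 6 VP genes. The total is 6.57% and 6.65% in the Day 4 libraries, 2.47% in Day 10 replicate 3 and under 1.3% in each of the other libraries.

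The make-up of these counts changed with time. #310665 supplied 92.0% to 92.6% of the counts of the 6 genes in the control libraries and 22.0% and 22.6% in those of Day 4. #1360396 supplied 24.2% and 24.0% at Day 4 and 4.53% to 5.07% at Day 15. The share of #1487275 was 24.0% and 24.1% at Day 4, between 49.9% and 56.1% at Day 10 and between 55.7% and 58.5% at Day 15. These are shares of counts, which also follow gene length, and they compare a gene with itself across groups.

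A second change was the weight of the 6 genes within their family. Of all VP counts, they held 89.2% to 90.8% in liquid culture and 97.1% and 96.6% after 4 days on straw. They held 58.1%, 54.8% and 77.1% after 10 days, the last in replicate 3, and 28.7% to 30.9% after 15 days. Of all AA2 counts, they held 83.9% and 84.6% at Day 4 and 16.2% to 18.4% at Day 15. The other 3 VP genes made up 0.195% and 0.231% of the libraries at Day 4 and 0.699% to 0.784% at Day 15. By Day 15 most VP counts thus lay on the other 3 VP genes. The rule put the VP genes highest at Day 4 among the 6, so a share that falls after Day 4 follows from the choice and is a description.

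The comparison of Day 10 with the control asks whether the genes were still above their liquid level after the peak. All 6 were called higher, where 31.5% of all genes tested were called higher and 31.1% lower. The median log2 fold change was 7.63 for the 6 genes and -0.02 for all genes tested. The largest was that of #1360396, at 8.37 ± 0.16 (SE, edgeR adjusted p = 7.5e-13), and #1487275 followed the same direction at 8.01 ± 0.27 (adjusted p = 4.4e-11, edgeR). #918032 was higher by 8.07 ± 0.62 (edgeR adjusted p = 1.4e-07) and #1110945 by 7.26 ± 0.53 (8.1e-08). #1359988 and #310665 were higher by 3.73 ± 0.39 and 3.10 ± 0.22 (edgeR adjusted p = 2.9e-06 and 6.8e-08).

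Without Day 10 replicate 3 the same 6 calls were made, and 3 of the fold changes moved by more than 1.5 times. The fold of #918032 went from 268 to 123, that of #1110945 from 153 to 86.2 and that of #1359988 from 13.3 to 8.28. With library totals as the only scaling, all genes together had a median of -0.24 in place of -0.02, and the call and direction of all 6 genes were the same.

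At Day 15, 5 of the 6 genes were called higher than in the control, where 33.0% of all genes tested were called higher and 33.0% lower. The median log2 fold change of the 6 was 3.09, against -0.02 for all genes. #1487275 and #1360396 were the highest above the control, at 5.79 ± 0.25 and 5.66 ± 0.14 on the log2 scale (edgeR adjusted p = 3.4e-10 and 3.9e-12). #918032 and #1110945 were higher by 3.12 ± 0.51 and 3.07 ± 0.47 (edgeR adjusted p = 0.00013 and 7.0e-05). #310665 was higher by 0.97 ± 0.21 (edgeR adjusted p = 0.0011), or 1.96-fold.

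#1359988 was the gene not called at Day 15. Its log2 difference from the control was 0.67 ± 0.39, with a 95% interval from -0.17 to 1.51 (edgeR adjusted p = 0.145). Without Day 10 replicate 3, which belongs to neither group of this contrast, the difference was 0.65 and was called (edgeR adjusted p = 0.011). It was also called with only the control and Day 15 libraries in the fit (0.66, adjusted p = 0.0067, edgeR). Over all alternatives its adjusted p ran from 0.0067 to 0.397.

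**Figure D3:**
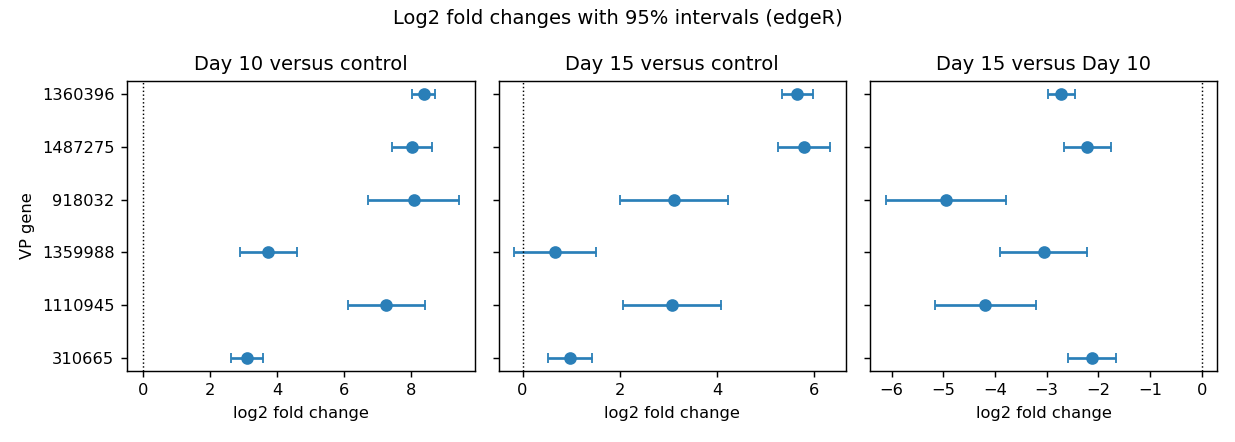
Log2 fold changes of the 6 VP genes with 95% intervals from the edgeR fit, in the 3 comparisons that do not involve Day 4 (the dotted line marks no difference). Only the interval of #1359988 in Day 15 versus control, from -0.17 to 1.51, includes 0.

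Between Day 10 and Day 15 all 6 genes fell, where 12.4% of all genes tested were called lower and 11.7% higher. The rule left out VP genes that were highest at Day 10 or Day 15, while the background was not chosen in this way. The median log2 fold change was -2.89 for the 6 genes and -0.0021 for all genes tested. #918032 fell by 4.95 ± 0.54 (edgeR adjusted p = 7.0e-05), #1110945 fell by 4.18 ± 0.45 (6.9e-05) and #1359988 fell by 3.06 ± 0.39 (0.00018). For #1360396 the value was -2.72 ± 0.12 (edgeR adjusted p = 1.2e-07). #1487275 and #310665 fell by 2.22 ± 0.21 and 2.13 ± 0.21 (edgeR adjusted p = 2.7e-05 and 4.3e-05).

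In this comparison too, the third Day 10 library set the size of 3 of the falls. Without it #918032 fell 14.2-fold in place of 30.9-fold, #1110945 10.3-fold in place of 18.2-fold and #1359988 5.26-fold in place of 8.35-fold. All 6 genes remained called lower without it. The remaining 3 genes moved less, with #1360396 at 6.30-fold in place of 6.58-fold.

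**Figure D4:**
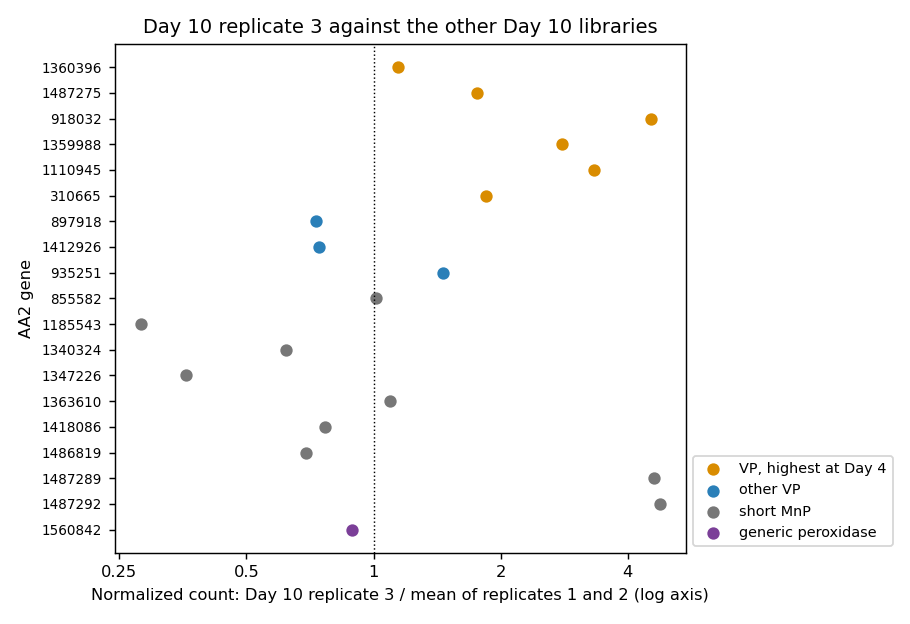
Ratio of the normalized count in Day 10 replicate 3 to the mean of Day 10 replicates 1 and 2, on a log axis, for the 19 AA2 genes. The 6 VP genes that were highest at Day 4 lie between 1.14 and 4.55, and both short MnP fragments #1487289 and #1487292 lie at 4.63 and 4.77. The short MnPs #1486819 and #1340324, also highest at Day 4, lie at 0.693 and 0.621.

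Replicate 3 of Day 10 was above the other Day 10 libraries for all 6 genes, by 1.14 times (#1360396), 1.76 times (#1487275), 1.85 times (#310665), 2.80 times (#1359988), 3.32 times (#1110945) and 4.55 times (#918032). The VP genes highest at Day 10 went the other way, with 0.729 for #897918 and 0.741 for #1412926. The remaining VP gene, #935251, which was highest in the control, went the same way as the 6, at 1.46 times. Short MnPs that were highest at Day 4 went both ways. #1486819 (16.89 ± 0.20 at Day 4) and #1340324 (16.27 ± 0.02) had 0.693 and 0.621, #855582 had 1.01, and the fragments #1487289 and #1487292 had 4.63 and 4.77.

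The fall from Day 10 to Day 15 was compared between the genes by the ratio of each pair within a library, which needs no scaling. The widest shift among the 15 pairs was that of #918032 over #310665, whose log2 ratio went from -2.04 ± 0.76 to -4.54 ± 0.27 (SD), a 5.67-fold change and 4.20-fold without Day 10 replicate 3. The ratio of #1487275 to #310665 overlapped between both days (0.80 ± 0.09 and 0.70 ± 0.12). With 3 libraries a side no pair could pass an exact permutation test, so the ratios are a description.

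Ratios within a library also showed how the genes parted after Day 4. The count of #1360396 was 1.01 and 0.996 times that of #1487275 after 4 days on straw. After 10 days it was 0.148, 0.132 and 0.0909 times, and after 15 days 0.0774, 0.0869 and 0.0839 times. The control ratios were 0.0925, 0.0892 and 0.0901, so both counts were near each other in the Day 4 libraries alone of the 11. The count of #1110945 was 1.21 and 1.06 times that of #1359988 in the Day 4 libraries, 4.92, 6.04 and 6.40 times by Day 10 and 3.99, 1.92 and 2.49 times by Day 15. In the control it was 0.443, 0.703 and 0.466 times.

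Over the 11 libraries, Pearson's r between the log2 values of any pair of the 6 genes lay between 0.72 (#1487275 and #1359988) and 0.99, and over the 8 straw libraries between 0.90 and 1.00. The libraries of a group share their condition, and the genes were chosen for a common peak, so these values are a description.

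Of the 13 other AA2 genes, 9 were called higher and 4 lower than the control at Day 10, and again at Day 15. Over all genes tested, 31.5% were called higher and 31.1% lower at Day 10, and 33.0% and 33.0% at Day 15. From Day 10 to Day 15, 6 of the 13 were called lower, 1 higher and 6 were not called, where the background was the same 12.4% and 11.7%. The median log2 fold change of the 13 was -0.39 beside -2.89 for the 6 VP genes. The 13 include short MnPs whose mean level was also highest at Day 4, given below. Among the other VP genes, #935251 fell by 0.70 (edgeR adjusted p = 0.0042), while #897918 and #1412926 had -0.29 and -0.20 (adjusted p = 0.172 and 0.399, edgeR). Without Day 10 replicate 3, 8 of the 13 were called lower, and #897918 was then called (-0.43, edgeR adjusted p = 0.021). The difference between these genes and the 6 was not tested.

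Of the 9 short MnPs, 5 were called lower from Day 10 to Day 15, 1 higher and 3 were not called, beside the 12.4% and 11.7% over all genes tested. Their extremes were #1487292, with -5.16 ± 0.56 (edgeR adjusted p = 6.7e-05), and #1347226, which rose by 0.96 ± 0.28 (edgeR adjusted p = 0.025). Without Day 10 replicate 3, 6 of the 9 were called lower and 1 higher, and #1487292 and #1347226 had -3.99 and 0.60. No short MnP was called higher without Day 15 replicate 1 or 2, or with only the 2 groups compared in the fit.

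All 3 AA5_1 copper radical oxidases, a family that includes glyoxal oxidases, were called higher than the control at Days 10 and 15. Over all genes tested, 31.5% were called higher at Day 10 and 33.0% at Day 15. All 3 oxidases were called lower at Day 15 than at Day 10, beside 12.4% of all genes tested. Their log2 changes from Day 10 to Day 15 ran from -2.39 ± 0.30 (#1353775, edgeR adjusted p = 0.00018) to -0.48 ± 0.15 (#1557562, edgeR adjusted p = 0.033). That of #1353775 was -1.78 without Day 10 replicate 3. Only 2 of the 3 were called lower without Day 10 replicate 1 or 2, without any 1 of the Day 15 replicates or without control replicate 2. The same held with only the 2 groups compared in the fit.

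Of the 36 AA3 genes, whose family includes aryl alcohol oxidases and other oxidases, 33 passed the filter. From Day 10 to Day 15, 14 were called lower, 2 higher and 17 were not called, beside 12.4% lower and 11.7% higher over all genes tested. The changes lay between -1.78 ± 0.25 for #1422328 (edgeR adjusted p = 0.00035) and 0.68 ± 0.18 for #1349968 (edgeR adjusted p = 0.015). Leaving out Day 10 replicate 3 gave 12 called lower and 1 higher, with -1.33 for #1422328 and 0.44 for #1349968. Leaving out Day 15 replicate 2 gave 9 called lower and 1 higher, and leaving out Day 15 replicate 3 gave 10 and 0. Fitting only the 2 groups compared gave 11 and 1.

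The 5 genes whose course was most like the mean of the 6 VP genes were sought among 15456 other genes by Pearson's r over the 11 libraries. They were #1406669 and #659690 (both r = 0.998), #1397901 (0.997), #1485482 (0.995) and #1487289 (0.995). The study's tables class #659690 as GH10, a family of xylanases that cut the hemicellulose xylan, and #1487289 as a C-terminal fragment of a short MnP. The level of #659690 was 7.78 ± 0.18 in liquid culture, and on straw 14.75 ± 0.16 (Day 4), 12.25 ± 0.37 (Day 10) and 10.14 ± 0.14 (Day 15). The likeness is not rare, since 347 genes had r above 0.95 and 23 above 0.99, and the list of 5 depended on the measure. It shared 3 genes with the list found without Day 10 replicate 3, 2 with that from the straw libraries alone and 0 with that by Spearman's rho.

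Gene positions came from the RefSeq table of the Polbr1 assembly, which does not name the scaffolds. Runs of rising start positions were taken as scaffolds. By that reading, #1487275, #1110945 and #1359988 lay on 1 scaffold of 83 genes, inside a stretch of 66.9 kb with 35 genes. #1110945 was 29.4 kb from #1487275 with 14 genes between them, and #1359988 was 33.1 kb further on with 18 genes between. Both short MnP fragments, #1487289 and #1487292 (gene spans of 324 and 371 bp), lay between #1110945 and #1359988. #1360396, #310665 and #918032 lay on 3 other scaffolds, of 67, 20 and 2 genes.

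**Figure D5:**
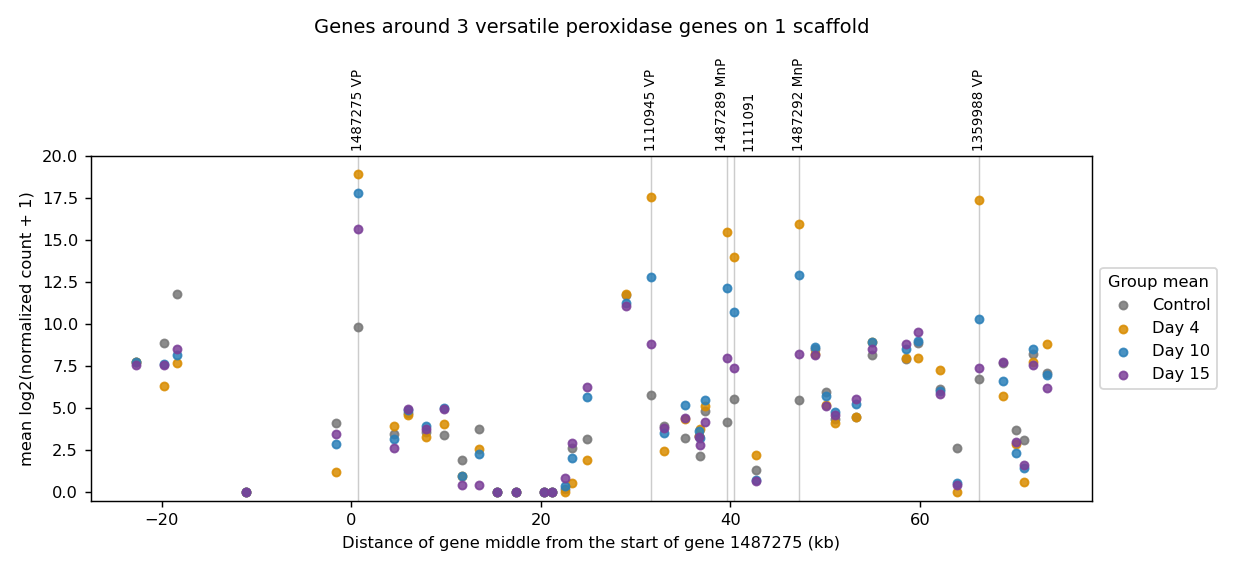
Mean level in each group, as log2(normalized count + 1), of the genes around #1487275, #1110945 and #1359988, by the distance of each gene's middle from the start of #1487275 in kb. The 3 VP genes, both short MnP fragments and #1111091 have Day 4 levels of 14.02 or more, and all other genes in the stretch have Day 4 levels below 12.

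The 30 other genes of the stretch went both ways. Of the 21 that passed the filter, 5 were called higher and 3 lower at Day 4 than in the control, with a median log2 fold change of -0.03, where 30.1% of all genes were called higher and 32.2% lower. From Day 10 to Day 15, 2 were called higher and 2 lower, with a median of -0.30, where 11.7% of all genes tested were called higher and 12.4% lower. The direct neighbours of #1110945, which were chosen by position, had log2 fold changes between Day 4 and the control of 0.02 (#1409310) and -1.74 (#1110977), beside 11.70 for #1110945. Those of #1360396 had 2.27 (#1120819) and 1.22 (#1360356), beside 12.52, and those of #310665 had 0.65 (#1412809) and -0.62 (#310928), beside 4.82. Those of #1487275 had -3.16 (#1421505) and 0.42 (#1409299), beside 9.05. For #1359988, #1421520 had -2.02, beside 10.58, and #1409326 did not pass the filter. Of these neighbours, #1120819, #1360356 and #1412809 were called higher and #1421505, #1421520, #1110977 and #310928 lower. Control levels of #1110977, #1421505 and #1409299 were low, at 3.97, 4.14 and 3.47.

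The exception in the stretch, singled out after its values were seen, was #1111091. Its mean level was 5.55 (control), 14.02 (Day 4), 10.71 (Day 10) and 7.37 (Day 15), and its gene model overlaps that of the fragment #1487289, so the reads of the overlap cannot be assigned to either. The level of #1487289 was 4.17 ± 0.40 (control), 15.48 ± 0.03 (Day 4), 12.12 ± 1.28 (Day 10) and 8.01 ± 0.25 (Day 15). #1487292 had 5.49 ± 0.27, 15.94 ± 0.09, 12.94 ± 1.30 and 8.21 ± 0.17 in the same groups. Among all genes other than the 6, #1487292 was also the one whose course was most like that of #918032 (r = 0.999), although the annotation puts them on different scaffolds.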

How the data were processed

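The deposited values are read counts per gene, which the authors made from paired-end reads (FastQC, Sickle, TopHat2, HTSeq). Versions of TopHat and HTSeq are not given in the sources used, and the submitters' notes name DESeq 1.5. Of 18244 genes, 1910 had no count in any library. All 11 libraries were used and no column was left out. The study calls the cultures biological replicates and describes triplicates, while Day 4 has 2 libraries here. No pair of replicates agreed within sampling noise (mean chi-square over genes 6.30 to 97.8).

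The counts were tested with edgeR 4.0.16 in R 4.3.3: TMM scaling, filterByExpr (minimum count 10, minimum total 15), 4 group means in 1 fit (7 residual degrees of freedom), and quasi-likelihood F tests. The standard error is the absolute log2 fold change over the square root of F. Levels used DESeq2 1.42.0 size factors and a pseudocount of 1. Contrasts with Day 4 were not tested for the VP genes, since Day 4 levels chose them. Named were the 6 genes, the other VP genes, the 5 genes most alike, and the largest and smallest change of each other list from Day 10 to Day 15. The members, lists and tests were chosen with earlier results of these data known. Lists came from the study's family tables. Of the 18244 gene numbers, 18240 matched a locus tag of the Polbr1 table. Sequences were not analysed here. Scripts were tested on simulated data. Alternatives were other scalings, filters, tests and samples, a replicate block and each library left out. Summaries used Python 3.11.15, numpy 2.4.6, pandas 2.3.3 and matplotlib 3.10.9.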

Additional observations from a re-analysis of the deposited data

Results flagged for a closer look

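For each of the 6 VP genes, the difference from the liquid control was not the same at Day 10 and at Day 15. Both differences share the control, so their difference is the comparison of Day 15 with Day 10, tested with edgeR. On the log2 scale it was -4.95 for #918032, -4.18 for #1110945, -3.06 for #1359988, -2.72 for #1360396, -2.22 for #1487275 and -2.13 for #310665. Over all genes tested, 12.4% were called lower in this comparison. The choice of the 6 left out VP genes that were highest at Day 10 or Day 15, unlike this background. For each of the 6 genes every Day 15 library lay below every Day 10 library, a separation that was not counted over all genes. Without Day 10 replicate 3 the values of #918032, #1110945 and #1359988 moved to -3.82, -3.36 and -2.39.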

How the results depend on the processing

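The count of VP genes called was 6 of 6 at Day 10 and 6 of 6 from Day 10 to Day 15 under all 18 alternatives, and 5 or 6 of 6 at Day 15 against the control. Of the fold changes of single genes, all 108 in each of the 2 comparisons with Day 10 and 106 of 108 in Day 15 versus control kept their direction and their side of the threshold. The exceptions were #1359988 without Day 10 replicate 3 (0.65) and with only the 2 groups compared (0.66). Same-numbered libraries of Days 10 and 15 had correlations of 0.048 to 0.081 between their deviations from the group means. Those of the control and Day 10 had 0.0025 to 0.151, and the 2 pairs of Days 4 and 10 had 0.181 and 0.188. In no comparison with 3 pairs were all over 0.1, so the numbers were not taken as a pairing, although each of the 3 Day 10 libraries correlated best with its own number at Day 15. With the replicate block the counts were 6, 5 and 6. With library totals as the only scaling, control levels were higher and Day 4 levels lower (for #1360396, 6.62 and 18.76). The pace per day and the order per kb without Day 10 replicate 3 were added after seeing the data. The 2 libraries at Day 4 limit the precision of that group, and counts of near-identical genes or overlapping gene models may be too low.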
